A study of Mus musculus with 12 samples.

Results

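The Krüppel-like factors (KLFs) other than KLF1 were followed through cultured mouse hematopoietic stem cells that did or did not express the leukemia fusion ETV6-RUNX1. The 8 genes, Klf2, Klf3, Klf4, Klf6, Klf7, Klf9, Klf10 and Klf13, were chosen by name, and all 8 were found among the 40481 genes of the deposited expression table. KLFs are zinc finger transcription factors that bind GC boxes and CACCC boxes through a shared carboxy-terminal domain, while their amino-terminal parts recruit either coactivators or corepressors. In blood, members of the family are known for setting the quiescence and trafficking of lymphocytes, the differentiation of monocytes and the maturation of red cells. ETV6-RUNX1 joins the amino-terminal part of the ETS factor ETV6 to nearly all of RUNX1 and is a frequent first lesion of childhood B-cell acute lymphoblastic leukemia.

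The study compared hematopoietic stem cells of wild-type (WT) mice and of mice with an inducible ETV6-RUNX1 fusion, each from E14.5 (embryonic day) fetal liver or from the bone marrow of 8-week-old animals, and asked how the developmental source shapes the effect of the fusion. There were 3 libraries in each of the 4 groups, 12 in all. Cells of every group, WT included, were kept in culture for 3 days with 1 µg/mL doxycycline, the inducer, so doxycycline itself is no difference between the genotypes. The labels used here do not say what drives the induced allele or whether replicates came from separate animals, so a p-value measures the spread between these libraries, which may be technical.

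Values are counts-per-million (CPM) values, that is, the reads of a gene scaled to a fixed library total. Libraries held 32316730 to 64483920 reads, and 3 reads corresponded to between 0.0465 and 0.0928 CPM. Reads of Runx1, which can count both the endogenous gene and the fusion, stood at 121 ± 13.0 CPM in WT and 227 ± 15.0 CPM in ETV6-RUNX1 fetal liver cells, and at 96.3 ± 9.17 against 170 ± 25.8 CPM in bone marrow cells (mean ± SD, n = 3 each). All 10 stem cell markers examined, among them Procr, Mecom, Hlf and Kit, were above 1 CPM in every library, and their summed level was 1590 to 1940 CPM in WT fetal liver, 3912 to 4046 in ETV6-RUNX1 fetal liver, 1688 to 2515 in WT bone marrow and 2823 to 3086 in ETV6-RUNX1 bone marrow. Reads of Xist stood between 51.7 and 89.3 CPM in the fetal liver libraries and between 0.175 and 1.27 CPM in the bone marrow libraries, so the source of the cells and the sex make-up cannot be told apart. The Y-linked gene Ddx3y was also read in fetal liver, at 23.5 to 41.5 CPM in WT and 69.1 to 75.2 CPM with ETV6-RUNX1. In bone marrow Ddx3y was at 68.6 to 122 and 95.7 to 140 CPM. Sex make-up may thus also differ between the fetal liver genotypes, and its part in the differences was not tested. Processed pseudogenes took 2.39% of reads in WT bone marrow replicate 1 against 1.72% and 1.80% in the other replicates of that group. They took 2.53% in WT fetal liver replicate 3 against 1.77% and 2.17%. With ETV6-RUNX1 the share was 2.29% to 2.74% in bone marrow and 1.33% to 2.06% in fetal liver, without overlap. Within each source the genotypes overlapped in this share. Where it serves as a covariate below, its part and that of the group are thus not fully separated.

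Differences are given as log2 fold changes on the log2(CPM + 1) scale, which understates the change of genes with low values, with the standard error (SE) of limma's moderated linear model. Adjusted p-values are Benjamini-Hochberg values over all 14271 genes that reached 1 CPM in at least 3 of the 12 libraries, and a gene was called at an adjusted p under 0.05. Of the 8 KLF genes, 6 passed that filter, and Klf2 and Klf4 did not. In cells from fetal liver, 4 of the 6 tested members rose with ETV6-RUNX1 (Klf6, Klf7, Klf3 and Klf13) and none fell, where 24.8% of all genes tested rose and 43.1% were called in either direction. In cells from bone marrow, 1 of the 6 rose (Klf6) and none fell, where 14.4% of all genes tested rose and 19.4% were called in either direction. The median log2 fold change of the 6 members was 0.64 in fetal liver and 0.20 in bone marrow, beside 0.08 and 0.13 for all genes tested. The median over all genes depended on scaling: in bone marrow it was 0.01 with median-of-ratios scaling, and in fetal liver it was -0.10 with quantile normalization.

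Promoter sequence of the 4 genes that rose in fetal liver is shown because RUNX1 and ETV6 bind DNA as sequence-specific factors and the KLF genes themselves often carry GC boxes. Each run spans 250 bases before to 50 bases after a RefSeq transcription start (build GRCm38.p6), 5′ to 3′ along the gene. Capitals mark the GC box GGGGCGGGG or its reverse complement, and a run with no capitals holds none.
Klf3, chr5:64803271-64803570 (+ strand): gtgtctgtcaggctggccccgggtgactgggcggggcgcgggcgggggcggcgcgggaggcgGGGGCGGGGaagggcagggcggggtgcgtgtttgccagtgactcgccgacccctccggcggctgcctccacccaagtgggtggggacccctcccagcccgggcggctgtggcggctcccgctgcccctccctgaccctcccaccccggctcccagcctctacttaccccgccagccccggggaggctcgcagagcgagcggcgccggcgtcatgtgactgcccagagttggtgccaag
Klf6, chr13:5861239-5861538 (+ strand): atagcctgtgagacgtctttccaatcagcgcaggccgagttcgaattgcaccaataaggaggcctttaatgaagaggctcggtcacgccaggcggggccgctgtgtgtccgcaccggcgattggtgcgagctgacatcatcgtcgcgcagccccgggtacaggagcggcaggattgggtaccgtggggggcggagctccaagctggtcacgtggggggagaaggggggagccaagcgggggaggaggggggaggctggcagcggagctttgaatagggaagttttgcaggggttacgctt
Klf7, chr1:64121340-64121639 (- strand): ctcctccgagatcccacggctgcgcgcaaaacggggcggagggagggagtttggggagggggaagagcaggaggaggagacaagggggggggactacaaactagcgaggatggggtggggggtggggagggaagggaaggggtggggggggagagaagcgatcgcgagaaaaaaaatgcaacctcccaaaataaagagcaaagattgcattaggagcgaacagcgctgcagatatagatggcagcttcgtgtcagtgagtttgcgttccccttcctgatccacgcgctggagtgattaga
Klf13, chr7:63938866-63939165 (- strand): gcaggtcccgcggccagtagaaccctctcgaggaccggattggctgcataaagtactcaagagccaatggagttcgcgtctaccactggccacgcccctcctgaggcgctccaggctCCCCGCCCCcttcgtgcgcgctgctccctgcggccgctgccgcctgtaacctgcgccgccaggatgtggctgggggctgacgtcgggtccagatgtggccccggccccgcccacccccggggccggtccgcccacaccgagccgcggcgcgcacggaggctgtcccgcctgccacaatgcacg
Klf3 and Klf13 each held 1 GC box, whose first base lies at -188 and -133 from the start site, and Klf6 and Klf7 held none in this window. Of the 7 members with an entry in the promoter table, 4 held the GC box (Klf2, Klf3, Klf4 and Klf13), beside 11.4% of 32851 promoters of the same length. The other letters searched on both strands were the RUNX site TGTGGT, the ETS site CCGGAAG, the interferon-stimulated response element and the CACCC box CCACACCC, held by 16.8%, 8.86%, 3.44% and 3.56% of all promoters. None of the 7 member promoters held any of these 4 in the window. A match describes letters only and says nothing of binding.

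Klf6 (ENSMUSG00000000078, GRCm38 chromosome 13, 5861482 to 5870394, + strand), a growth factor-responsive activator known to be needed for yolk sac blood formation, rose furthest of the 6 members in both sources. In WT fetal liver its level was 83.7, 88.9 and 84.4 CPM in replicates 1, 2 and 3, and in ETV6-RUNX1 fetal liver it was 289.6, 291 and 361 CPM. In WT bone marrow the 3 libraries stood at 83.0, 75.8 and 77.1 CPM, and in ETV6-RUNX1 bone marrow at 172, 253 and 145 CPM. The genotypes did not overlap in either source, the 6 WT libraries lay close together, and the ETV6-RUNX1 bone marrow libraries were the most spread. The ratio of group means was 3.66 in fetal liver, with a log2 fold change of 1.85 ± 0.17 (SE, limma adjusted p = 1.6e-06). In bone marrow the ratio was 2.41, with a log2 fold change of 1.22 ± 0.17 (SE, limma adjusted p = 0.000511). The exact two-sided permutation test of either comparison gave p = 0.1, the smallest that 3 libraries against 3 allow. Klf6 passed the threshold in both sources under all 24 alternatives of processing or libraries.

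**Figure D1:**
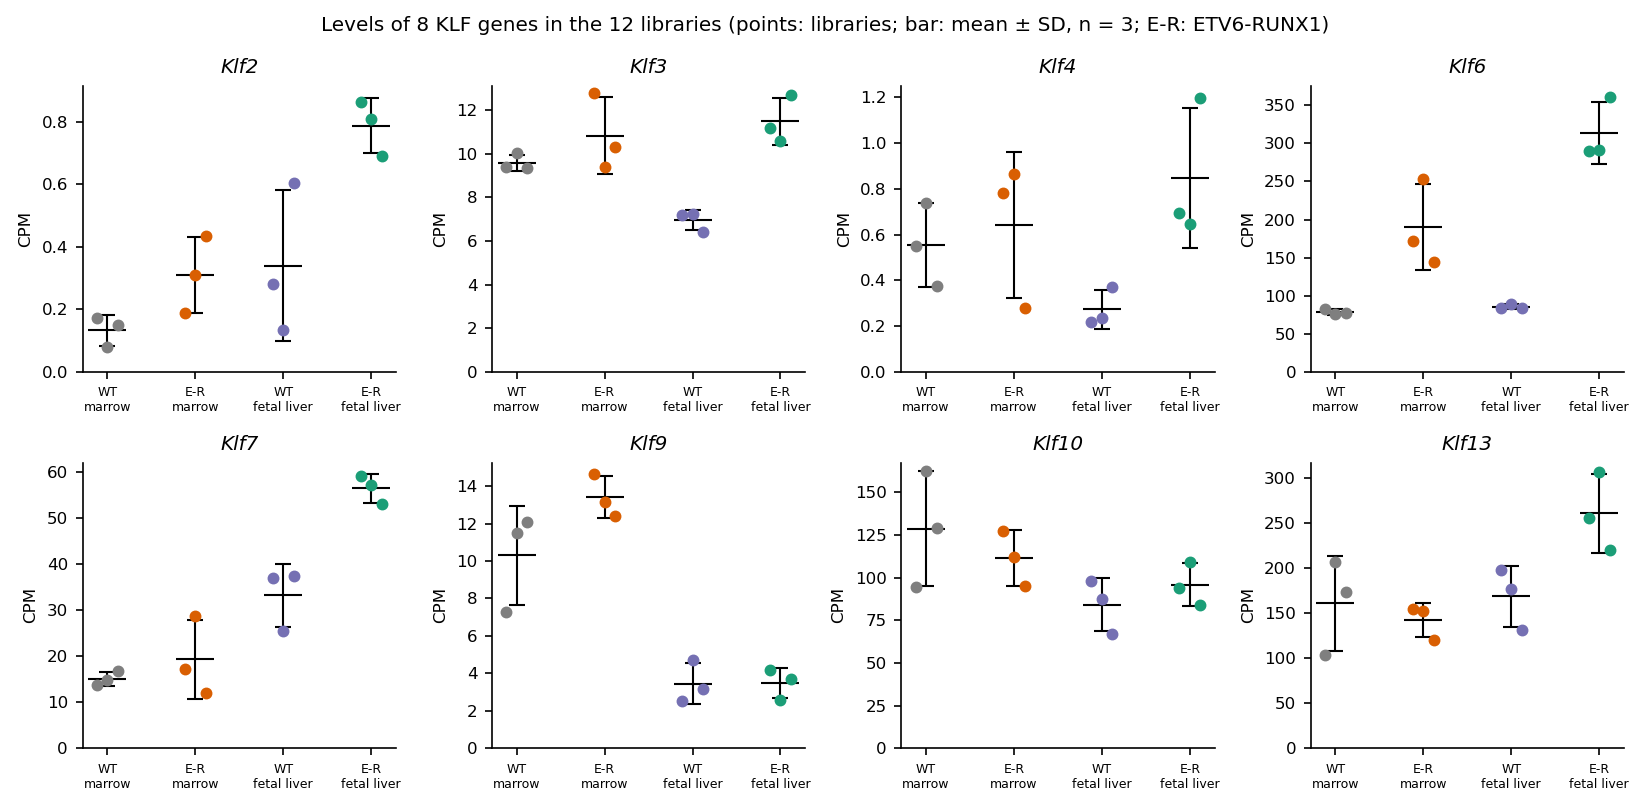
CPM of each of the 8 KLF genes (vertical axes, linear from 0, with a scale of their own for each gene) in every library, by group (horizontal axis), with 1 point per library and bars for the group mean ± SD (n = 3). Klf6 lies at 75.8 to 88.9 CPM in the 6 WT libraries and at 145 to 361 CPM in the 6 ETV6-RUNX1 libraries.

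Klf7 (ENSMUSG00000025959, chromosome 1, 64029447 to 64122282, − strand), a close relative of Klf6 known from neural development, rose with the fusion in cells from fetal liver. Its level was 37.0, 25.4 and 37.3 CPM in WT fetal liver and 59.2, 57.1 and 53.0 CPM in ETV6-RUNX1 fetal liver, so that every ETV6-RUNX1 library stood above every WT library. The log2 fold change was 0.77 ± 0.25 (SE, limma adjusted p = 0.0217), a ratio of means of 1.70. In bone marrow the WT libraries held 13.8, 14.8 and 16.7 CPM and the ETV6-RUNX1 libraries 17.1, 28.7 and 12.0 CPM. There the genotypes overlapped, with ETV6-RUNX1 replicate 2 far above the other 2 libraries of its group. The log2 fold change in bone marrow was 0.25 ± 0.25 (SE, 95% interval -0.27 to 0.78, limma adjusted p = 0.497). The fetal liver call was lost without WT replicate 2 (adjusted p = 0.102), ETV6-RUNX1 replicate 1 (0.063) or ETV6-RUNX1 replicate 2 (0.0549), with quantile normalization (0.0505), with all genes that had reads (0.0681), and with the processed pseudogene share of a library as a covariate (0.14).

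Klf3 (ENSMUSG00000029178, chromosome 5, 64803388 to 64832901, + strand), a repressor that recruits the corepressor CtBP and is known in erythroid and B cells, also rose in fetal liver. It stood at 7.18, 7.24 and 6.42 CPM in WT fetal liver and at 11.2, 10.6 and 12.7 CPM in ETV6-RUNX1 fetal liver. The groups did not overlap and each lay within a narrow range. Klf3 thus had a log2 fold change of 0.65 ± 0.17 (SE, limma adjusted p = 0.00679), a ratio of means of 1.65. Bone marrow libraries held 9.37, 10.01 and 9.34 CPM in WT and 12.8, 9.40 and 10.3 CPM with ETV6-RUNX1, which overlapped, and the log2 fold change was 0.15 ± 0.17 (SE, 95% interval -0.21 to 0.51, limma adjusted p = 0.559). With quantile normalization the fetal liver value of Klf3 was 0.38 (limma adjusted p = 0.0687).

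Klf13 (ENSMUSG00000052040, chromosome 7, 63886351 to 63938915, − strand), a GC box-binding factor known for driving Ccl5 late in T cell activation, was the least firm of the 4. Fetal liver libraries held 198, 177 and 132 CPM in WT and 256, 307 and 219.9 CPM with ETV6-RUNX1. The groups did not overlap, although the highest WT and the lowest ETV6-RUNX1 library were close. Klf13 had a log2 fold change of 0.63 ± 0.23 (SE, limma adjusted p = 0.0377). In bone marrow, WT libraries held 103, 207 and 173 CPM and ETV6-RUNX1 libraries 154, 153 and 120.0 CPM. WT replicate 1 was the lowest of all 12 libraries and WT replicate 2 stood above every ETV6-RUNX1 bone marrow library. The log2 fold change there was -0.13 ± 0.23 (SE, 95% interval -0.62 to 0.36, limma adjusted p = 0.724). The fetal liver call was lost when any of 4 fetal liver libraries was left out (WT replicate 2, adjusted p = 0.0637; WT replicate 3, 0.162; ETV6-RUNX1 replicate 1, 0.0781; ETV6-RUNX1 replicate 2, 0.139), in edgeR (0.0503) and with all genes that had reads (0.119). With the processed pseudogene share as a covariate the log2 fold change of Klf13 in fetal liver was 0.17 (limma adjusted p = 0.411).

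Of these genes, Gm20033 overlaps exons of Klf3, and Gm26649 and Gm13748 overlap exons of Klf7, on the opposite strand. The library kit keeps the strand, whether counting used it is not given in the sources used here, and these overlapping genes held at most 0.649 CPM.

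Klf10 (ENSMUSG00000037465, chromosome 15, 38291463 to 38300706, − strand), a TGF-beta-inducible repressor known to act on Smad7, showed no difference between the genotypes that passed the test. In fetal liver its level was 97.9, 87.3 and 67.3 CPM in WT and 94.1, 109.5 and 84.2 CPM with ETV6-RUNX1. In bone marrow it was 94.9, 163 and 129 CPM in WT and 127, 112 and 95.2 CPM with ETV6-RUNX1. The ranges of the genotypes overlapped in both sources. The log2 fold change was 0.20 (95% interval -0.23 to 0.62, limma adjusted p = 0.449) in fetal liver and -0.18 (-0.60 to 0.24, 0.549) in bone marrow.

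Klf9 (ENSMUSG00000033863, chromosome 19, 23141226 to 23168134, + strand), a repressor known to be induced by glucocorticoid and thyroid hormone, did not pass the test for genotype in either source. It stood at 2.53, 4.70 and 3.15 CPM in WT and 4.2, 2.60 and 3.69 CPM in ETV6-RUNX1 fetal liver, and at 7.28, 11.5 and 12.1 CPM in WT and 14.6, 13.2 and 12.4 CPM in ETV6-RUNX1 bone marrow. The fetal liver ranges overlapped, whereas each ETV6-RUNX1 bone marrow library lay above each WT one. The log2 fold change was 0.02 (95% interval -0.48 to 0.53, limma adjusted p = 0.944) in fetal liver and 0.38 (-0.13 to 0.88, 0.279) in bone marrow.

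**Figure D2:**
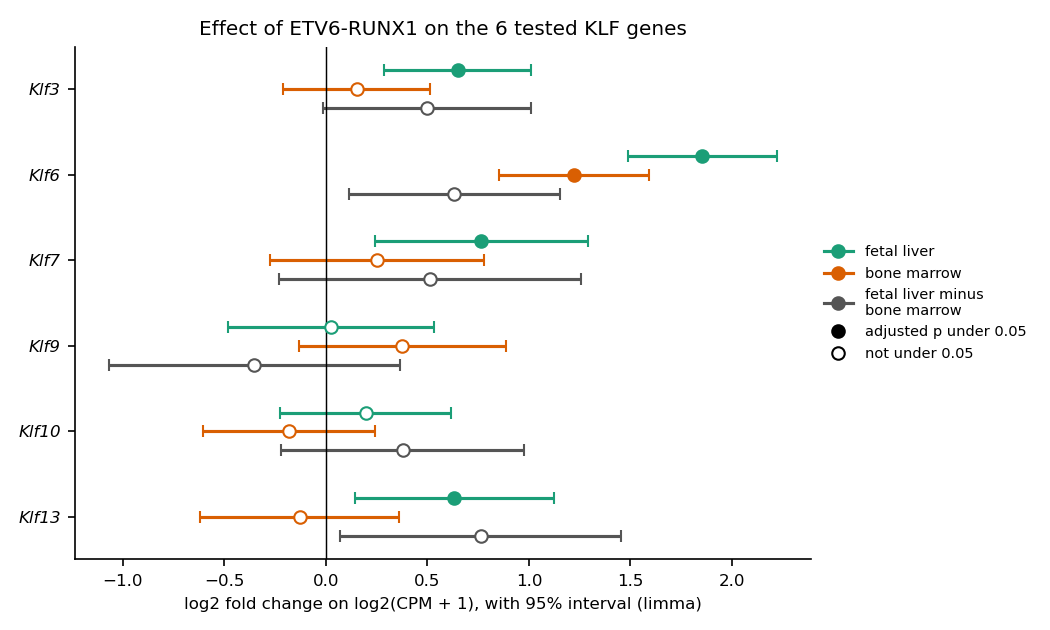
Log2 fold change of ETV6-RUNX1 against WT (horizontal axis, on log2(CPM + 1)) for the 6 tested KLF genes (vertical axis) in fetal liver and bone marrow, and the difference between the 2 effects, with 95% intervals from limma and filled points where the adjusted p was under 0.05. The fetal liver values of Klf6, Klf7, Klf3 and Klf13 (1.85, 0.77, 0.65 and 0.63) and the bone marrow value of Klf6 (1.22) are filled, and none of the differences is.

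Klf2 and Klf4 were near the detection limit. Klf2 (ENSMUSG00000055148, chromosome 8, 72319033 to 72321656, + strand), known for holding lymphocytes quiescent and for inducing the egress receptor S1pr1, had 13, 8 and 39 reads in WT fetal liver and 41, 45 and 23 reads in ETV6-RUNX1 fetal liver. These reads gave 0.281, 0.134 and 0.605 CPM in WT and 0.861, 0.808 and 0.690 CPM with ETV6-RUNX1. In bone marrow it stood at 0.171, 0.0779 and 0.149 CPM in WT and 0.189, 0.309 and 0.433 CPM with ETV6-RUNX1. The genotypes did not overlap in either source, with the higher values in ETV6-RUNX1 cells and every library under 1 CPM.

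Klf4 (ENSMUSG00000003032, chromosome 4, 55527143 to 55532466, − strand), known for monocyte differentiation and as a reprogramming factor, had 0.216, 0.234 and 0.372 CPM in WT and 0.693, 0.646 and 1.20 CPM in ETV6-RUNX1 fetal liver, from 10 to 40 reads. In bone marrow the WT libraries held 0.552, 0.740 and 0.374 CPM and the ETV6-RUNX1 libraries 0.784, 0.866 and 0.278 CPM. The genotypes did not overlap in fetal liver and overlapped in bone marrow. Both genes could be tested only in a fit over all 29278 genes with reads, where the fetal liver log2 fold change was 0.43 for Klf2 (limma adjusted p = 0.0270) and 0.52 for Klf4 (limma adjusted p = 0.0498). In bone marrow that fit gave 0.21 for Klf2 (limma adjusted p = 0.355) and 0.07 for Klf4 (limma adjusted p = 0.897).

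Whether the fusion acted differently in the 2 sources was tested as the difference between its effects. Of all genes tested, 9.19% passed that test, and none of the 6 KLF genes did, while 2 (Klf6 and Klf13) had an unadjusted p under 0.05. The count was 0 in edgeR and 1 in DESeq2 (Klf13). For Klf6 the effect in fetal liver exceeded that in bone marrow by 0.63 ± 0.24 on the log2 scale (SE, 95% interval 0.11 to 1.15, limma unadjusted p = 0.0208, adjusted p = 0.116). Klf6 passed without ETV6-RUNX1 bone marrow replicate 2, the highest library of its group, with a difference of 0.86 (limma adjusted p = 0.0143). For Klf13 the difference was 0.76 ± 0.32 (SE, 95% interval 0.07 to 1.46, limma unadjusted p = 0.0337, adjusted p = 0.151). Klf13 passed without WT bone marrow replicate 1, its lowest library, with a difference of 1.05 (limma adjusted p = 0.0143), with array weights (0.94, 0.0137) and in DESeq2 (0.87, 0.0424). With the processed pseudogene share as a covariate the sign of the Klf13 difference turned, to -0.19 (limma adjusted p = 0.719). The differences for Klf3, Klf7, Klf9 and Klf10 were 0.50, 0.51, -0.35 and 0.38, with limma adjusted p between 0.201 and 0.536. So a call in fetal liver alone, as for Klf3 and Klf7, was not shown to be particular to that source.

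The sources themselves were then compared within each genotype. Among WT cells 1 of the 6 members was higher in fetal liver (Klf7) and 1 lower (Klf9), where 11.1% of all genes tested were called. Among ETV6-RUNX1 cells 3 were higher in fetal liver (Klf6, Klf7 and Klf13) and 1 lower (Klf9), where 28.6% of all genes tested were called. These comparisons share their libraries with those of genotype. Klf9 was higher in adult cells. Its mean was 10.3 ± 2.63 CPM in WT bone marrow and 3.46 ± 1.12 CPM in WT fetal liver (SD, n = 3 each), and every bone marrow library lay above every fetal liver library. The log2 difference of fetal liver from bone marrow was -1.34 ± 0.24 in WT (SE, limma adjusted p = 0.0019) and -1.69 ± 0.24 with ETV6-RUNX1 (SE, limma adjusted p = 0.000117), and both calls were kept under all 24 alternatives.

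Klf7 was higher in fetal cells, at 33.3 ± 6.80 CPM in WT fetal liver against 15.1 ± 1.5 CPM in WT bone marrow (SD, n = 3 each) with no overlap. Its log2 difference was 1.07 ± 0.25 in WT (SE, limma adjusted p = 0.0106) and 1.58 ± 0.25 with ETV6-RUNX1 (SE, limma adjusted p = 0.000282). The WT call of Klf7 was lost without WT fetal liver replicate 3 (limma adjusted p = 0.0549) and in the fit over all genes with reads (0.0514), and without both that library and WT bone marrow replicate 1 (0.0769). Klf6 was nearly level between the WT sources, with a log2 difference of 0.12 ± 0.17 (SE, limma adjusted p = 0.698), but among ETV6-RUNX1 cells it was higher in fetal liver by 0.76 ± 0.17 (SE, limma adjusted p = 0.00492). For Klf13 the log2 difference was 0.10 ± 0.23 in WT (SE, limma adjusted p = 0.813) and 0.87 ± 0.23 with ETV6-RUNX1 (SE, limma adjusted p = 0.0118). That ETV6-RUNX1 difference of Klf13 was 0.08 with the processed pseudogene share as a covariate (limma adjusted p = 0.783), and without ETV6-RUNX1 fetal liver replicate 2 its adjusted p was 0.0545. Klf3 and Klf10 gave WT differences of -0.41 and -0.59 that did not pass (limma adjusted p = 0.14 and 0.071). Klf10 did pass without WT bone marrow replicate 1, its lowest WT bone marrow library, with -0.79 (limma adjusted p = 0.00994), with array weights (-0.75, 0.00205), with the pseudogene covariate (-0.46, 0.0273), and without both that library and WT fetal liver replicate 3 (-0.64, 0.0419). Klf3 passed with array weights (-0.41, 0.0382). With the processed pseudogene share as a covariate Klf10 also passed in ETV6-RUNX1 cells, at -0.82 against -0.21 without it (limma adjusted p = 0.00764 and 0.448).

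**Figure D3:**
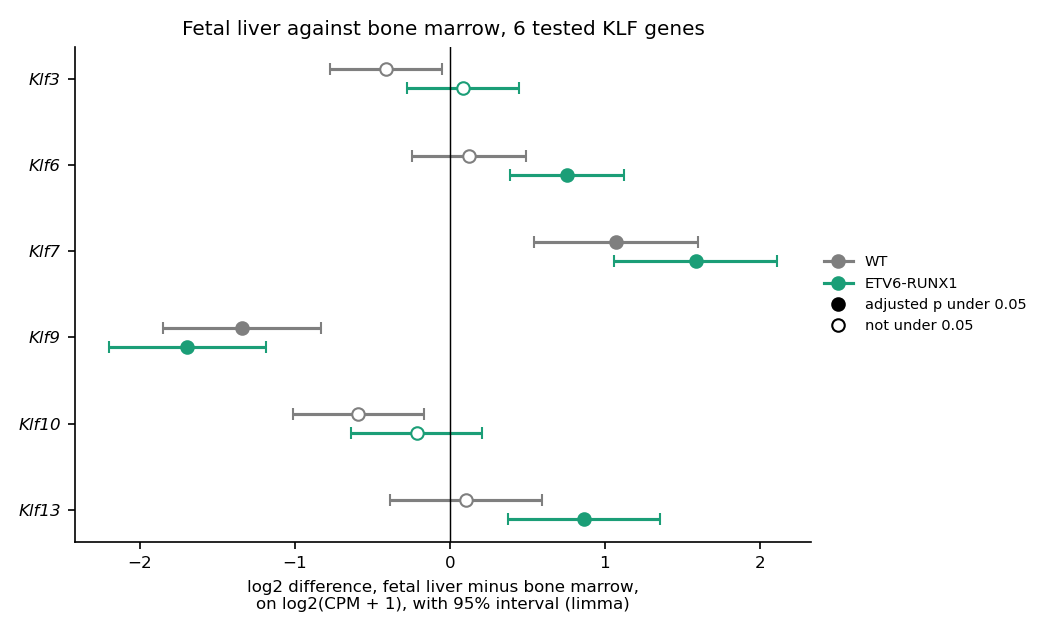
Log2 difference of fetal liver from bone marrow (horizontal axis, on log2(CPM + 1)) for the 6 tested KLF genes (vertical axis) in WT and ETV6-RUNX1 cells, with 95% intervals from limma and filled points where the adjusted p was under 0.05. Klf9 lies at -1.34 and -1.69, and Klf7 at 1.07 and 1.58.

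The order of the 4 groups differed from gene to gene. For Klf6 the ranges of all 4 groups were separate, descending from ETV6-RUNX1 fetal liver (314 ± 40.8 CPM) through ETV6-RUNX1 bone marrow (189.9 ± 56.5) and WT fetal liver (85.7 ± 2.81) to WT bone marrow (78.6 ± 3.86; mean ± SD, n = 3 each). For Klf10 every pair of neighbours in the order overlapped. For Klf13 only ETV6-RUNX1 fetal liver (261 ± 43.7 CPM) stood apart from the others, and for Klf3 only WT fetal liver (6.95 ± 0.458 CPM) did, as the lowest. Levels were compared between genes only per kilobase of merged exon. In WT bone marrow, Klf10 was at 30.8, Klf13 at 21.4 and Klf6 at 17.9 CPM per kilobase, Klf9, Klf7 and Klf3 lay between 0.852 and 2.14, and Klf2 was lowest at 0.0720. In ETV6-RUNX1 fetal liver, Klf6 was the highest of the 8 at 71.5 CPM per kilobase, above Klf13 at 34.6 and Klf10 at 23.0.

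Markers of other blood lineages differed between the same groups. In fetal liver the summed level of 6 megakaryocyte markers was 3049 to 4501 CPM in WT and 7035 to 7647 CPM with ETV6-RUNX1. Pf4 held most of that sum, at 2472 and 4816 CPM, and Gp9 went the other way, from 387 to 213 CPM. The sum was 673 to 935 and 1302 to 2044 CPM for 6 erythroid markers, 221 to 280 and 691 to 881 CPM for 9 monocyte-macrophage markers, and 294 to 359 and 484 to 622 CPM for 5 endothelial markers. Most of these sums was Hbb-bt (815 and 1611 CPM), Lyz2 (233 and 686 CPM), and Esam with Tie1 (180 and 341, 124 and 175 CPM). The endothelial markers Emcn (18.7 and 12.9 CPM) and Kdr (6.79 and 6.32 CPM) were not higher with ETV6-RUNX1. C1qa and Ly86 of the monocyte-macrophage list and Car1 and Klf1 of the erythroid list were under 1 CPM in fetal liver in both genotypes. Neutrophil markers went the other way, from 238 to 311 CPM in WT to 37.4 to 55.3 CPM with ETV6-RUNX1. In bone marrow, megakaryocyte markers stood at 1361 to 1813 CPM in WT and 464 to 2080 CPM with ETV6-RUNX1, monocyte-macrophage markers at 229.6 to 294 and 253 to 411 CPM, erythroid markers at 213 to 470 and 377 to 582 CPM, endothelial markers at 354 to 458 and 500.1 to 552 CPM and neutrophil markers at 155 to 366 and 103 to 128 CPM. B cell, T and NK cell, mast cell and stromal lists summed to at most 82.6 CPM in any library. In bulk RNA, fewer cells of a type and less RNA per cell cannot be told apart, and the part of these markers in the KLF differences was not tested.

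The wider family was described with 13 other KLF and SP genes, of which 9 passed the filter. In fetal liver 5 of the 9 rose with ETV6-RUNX1 and none fell, where 24.8% of all genes tested rose, among them Sp4 (log2 fold change 1.15 ± 0.28, SE, limma adjusted p = 0.00471), Klf8, a CtBP-binding repressor (1.03 ± 0.26, 0.00507), and Klf11, a TGF-beta-inducible relative of Klf10 (0.75 ± 0.23, 0.0154). The other 2 were Klf12 (0.58, limma adjusted p = 0.037) and Sp3 (0.49, 0.0364), whose calls were lost under 12 of 23 and 9 of 24 alternatives (adjusted p up to 0.186 and 0.114), WT replicate 1 or 3 or ETV6-RUNX1 replicate 2 left out among them. Klf12 was at 0.264 to 1.04 CPM in WT and 0.960 to 1.76 CPM in ETV6-RUNX1 fetal liver. In bone marrow it was at 0.797 to 0.990 and 1.18 to 1.62 CPM. Klf12 thus passed the filter mainly through ETV6-RUNX1 libraries, and its call is no separate support for a rise. The Klf11 call was lost under 3 of 24 (WT replicate 1 or ETV6-RUNX1 replicate 2 left out, and quantile normalization), and the Klf8 call under 1, the pseudogene covariate. In bone marrow 1 of the 9 rose, Sp2 (0.74 ± 0.21, SE, limma adjusted p = 0.027), where 14.4% of all genes tested rose. That call was lost under 8 of 24 alternatives (adjusted p up to 0.121), among them without WT replicate 1 or 2 or ETV6-RUNX1 replicate 1 or 2. Klf1, the erythroid master regulator, was at 0.654 ± 0.259 CPM in WT and 0.175 ± 0.143 CPM in ETV6-RUNX1 fetal liver (SD, n = 3 each). The median log2 fold change over the 9 was 0.49 in fetal liver and 0.42 in bone marrow, beside 0.08 and 0.13 for all genes tested.

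**Figure D4:**
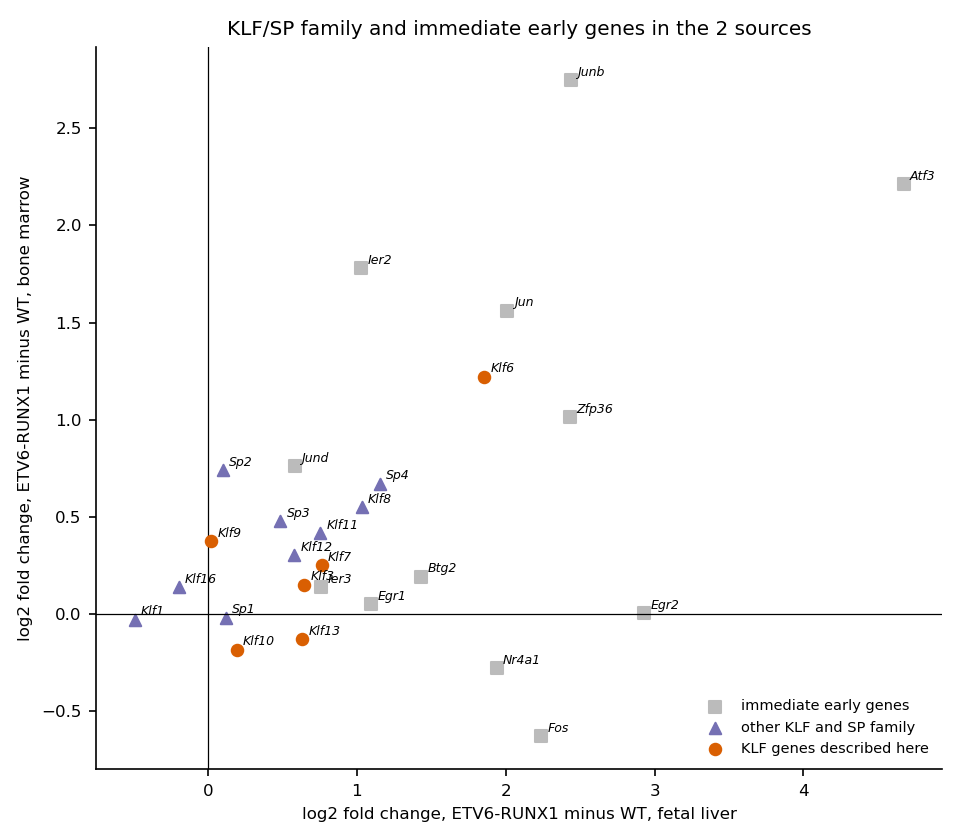
Log2 fold change of ETV6-RUNX1 against WT in fetal liver (horizontal axis) and bone marrow (vertical axis), both on log2(CPM + 1), with 1 point per tested gene: the 6 KLF genes described here, other KLF and SP genes, and immediate early genes. Klf6 lies at 1.85 and 1.22, apart from the other KLF and SP genes.

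KLF proteins act through partners, and 12 corepressor and coactivator genes were examined. In fetal liver 4 rose, 3 fell and 5 did not pass, where 24.8% of all genes tested rose and 43.1% were called in either direction. The acetyltransferases Kat2b (1.20 ± 0.16, SE, limma adjusted p = 4.44e-05), Ep300 (0.86 ± 0.20, 0.00315) and Crebbp (0.55 ± 0.13, 0.00331) rose, as did the corepressor Ctbp2 (0.42, 0.0255), while the deacetylases Hdac1, Hdac2 and Hdac3 fell by 0.42, 0.46 and 0.43 (limma adjusted p = 0.0133, 0.0471 and 0.0132). The calls of Ctbp2 and Hdac2 were lost under 9 and 10 of 24 alternatives (adjusted p up to 0.179 and 0.301), among them without WT fetal liver replicate 2 or 3 or ETV6-RUNX1 fetal liver replicate 2. That of Hdac1 was lost without WT fetal liver replicate 2 or ETV6-RUNX1 fetal liver replicate 3, and that of Hdac3 without the latter library. In bone marrow 4 rose and 1 fell, where 14.4% rose and 19.4% were called of all genes tested, with Kat2b at 0.73 ± 0.16 (SE, limma adjusted p = 0.00666), Sin3b, a scaffold of Sin3 corepressor complexes, at 0.53 ± 0.13 (0.0134), Ctbp1 at 0.61 (0.025) and Hdac1 at -0.58 ± 0.12 (0.00607). The Ctbp1 call was lost under 10 of 24 alternatives (adjusted p up to 0.0992), WT bone marrow replicate 2 or ETV6-RUNX1 bone marrow replicate 3 left out among them. The Sin3b call was lost under 4 of 24 (adjusted p up to 0.1), ETV6-RUNX1 bone marrow replicate 2 left out among them. Both sources thus had a higher level of Kat2b and a lower level of Hdac1 with the fusion. The 12 genes had a median log2 fold change of 0.21 in fetal liver and 0.27 in bone marrow, beside 0.08 and 0.13 for all genes tested.

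A list of 12 genes held those upstream of Klf2 and Klf4 (the MEKK3-ERK5-MEF2 route and Foxo1) and ubiquitin ligases of KLF proteins. Of these 12, 6 rose and 1 fell in fetal liver, and 3 rose and 1 fell in bone marrow. Of all genes tested, 24.8% rose and 43.1% were called in fetal liver, and 14.4% and 19.4% in bone marrow. Map3k3, which encodes MEKK3, rose in both sources, by 1.09 ± 0.18 with fetal liver cells (SE, limma adjusted p = 0.000297) and by 0.57 ± 0.18 with bone marrow cells (0.0403). The bone marrow call of Map3k3 was lost under 13 of 24 alternatives (log2 fold change 0.33 to 0.70, adjusted p up to 0.261), among them without replicate 2 or 3 of either genotype in bone marrow. Mef2a (1.08 ± 0.21, SE, limma adjusted p = 0.000884) and Foxo1 (0.84 ± 0.18, 0.00186) rose in fetal liver, where Map2k5, which encodes the kinase between MEKK3 and ERK5, fell by 0.61 (0.00643). The ligase gene Smurf1 rose in both sources, by 0.71 ± 0.20 (SE, limma adjusted p = 0.012) and 0.65 ± 0.20 (0.0381). Its bone marrow call was lost under 12 of 24 alternatives (log2 fold change 0.35 to 0.96, adjusted p up to 0.219), among them without replicate 1 or 2 of either genotype in bone marrow, and its fetal liver call under 4 (adjusted p up to 0.106), among them without WT fetal liver replicate 2 or 3. In bone marrow the ligase gene Siah1a rose (0.71 ± 0.18, SE, limma adjusted p = 0.0163) and Mef2c fell by 0.67 on the log2 scale (limma adjusted p = 0.0194). These calls were lost under 3 and 7 of 24 alternatives (adjusted p up to 0.13 and 0.0952), for Siah1a without ETV6-RUNX1 bone marrow replicate 2, and for Mef2c without WT replicate 2 or 3 or ETV6-RUNX1 replicate 1 or 3 of bone marrow.

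Of 13 genes known as KLF targets in other settings, 12 were tested. In fetal liver 8 rose, 1 fell and 3 did not pass, and in bone marrow 5 rose, 1 fell and 6 did not pass, where 43.1% and 19.4% of all genes tested were called. Ccl5, the chemokine known as a KLF13 target, went from 1.91 ± 0.750 CPM in WT to 177 ± 79.0 CPM in ETV6-RUNX1 fetal liver and from 28.2 ± 11.5 to 219 ± 102 CPM in bone marrow (SD, n = 3 each). Its log2 fold change reached 5.88 ± 0.37 in fetal cells (SE, limma adjusted p = 3.69e-08) and 2.88 ± 0.37 in adult cells (SE, limma adjusted p = 0.000301). Klf13 itself was called only in fetal liver, but the difference between its 2 effects did not pass (limma adjusted p = 0.151). Whether Klf13 has a part in the Ccl5 change was not tested. Tgfbr1, known to be activated by KLF6, rose in fetal liver (1.21 ± 0.28, SE, limma adjusted p = 0.003). Eng, the TGF-beta coreceptor endoglin and also known as a KLF6 target, rose in both sources, by 0.70 ± 0.18 in fetal cells (SE, limma adjusted p = 0.00582) and by 1.30 ± 0.18 in adult cells (0.000395). The monocyte genes Cd14 and Lgals3 rose in both sources, Cd14 by 1.33 and 1.61 (limma adjusted p = 0.0294 and 0.0243) and Lgals3 by 0.97 and 1.08 (0.0385 and 0.046). In WT fetal liver and bone marrow Cd14 reached at most 0.713 and 0.837 CPM, and Lgals3 at most 1.23 and 0.299 CPM. Cd14 thus passed the filter through ETV6-RUNX1 libraries alone, and Lgals3 mainly through them. Their tests are no separate support for a rise, although both genes are in the counts above. Of 23 alternatives, 4 in fetal liver and 6 in bone marrow ended the Cd14 call (adjusted p up to 0.121 and 0.149), and 9 and 15 ended the Lgals3 call (adjusted p up to 0.159 and 0.179). Both genes lost the call without WT replicate 1 or 2 or ETV6-RUNX1 replicate 3 in fetal liver, and without WT replicate 3 or ETV6-RUNX1 replicate 2 or 3 in bone marrow. Cdkn1a, the cell cycle inhibitor p21, completed the genes that rose in bone marrow (1.12, limma adjusted p = 0.0392), a call lost under 11 of 24 alternatives (adjusted p up to 0.161), among them without any of the 3 WT libraries or ETV6-RUNX1 replicate 1 or 2 of bone marrow. Thbd, the thrombomodulin gene that KLF2 and KLF4 activate in endothelium, fell by 1.21 and 1.11 on the log2 scale (limma adjusted p = 0.00552 and 0.0213). The bone marrow call of Thbd was lost under 6 of 24 alternatives (adjusted p up to 0.118), among them without WT replicate 2 or 3 or ETV6-RUNX1 replicate 3 of bone marrow.

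Klf6 and Klf10 are growth factor-responsive, so immediate early genes were listed beside them. Of 14 such genes 12 were tested, and 9 rose in fetal liver and 4 in bone marrow, where 24.8% and 14.4% of all genes tested rose. The medians were 1.98 and 0.48, beside 0.08 and 0.13 for all genes tested. Egr2 went from 0.295 ± 0.261 CPM to 9.26 ± 3.98 CPM in fetal liver and was 0.101 ± 0.0458 and 0.112 ± 0.144 CPM in bone marrow (SD, n = 3 each). It passed the filter through the ETV6-RUNX1 fetal liver libraries alone. Zfp36, an mRNA-destabilising factor, rose in both sources, by 2.43 ± 0.23 (SE, limma adjusted p = 1.92e-06) and 1.02 ± 0.23 (0.00846), and Junb by 2.44 ± 0.45 (0.00068) and 2.75 ± 0.45 (0.00142). Ier2 (1.78, limma adjusted p = 0.0458) and Jun (1.56, 0.0489) were the other genes of this list that rose in bone marrow. The Ier2 and Jun calls were lost under 12 and 18 of 24 alternatives (adjusted p up to 0.188 and 0.177), among them without WT replicate 1 or 2 or ETV6-RUNX1 replicate 1 or 2 of bone marrow. Of 7 genes of the glucocorticoid response, the pathway known to induce Klf9, 2 rose and 1 fell in fetal liver and 3 rose in bone marrow, so the 3 of 7 called in fetal liver were near the 43.1% of all genes tested, and 19.4% of these were called in bone marrow. Nr3c1, the glucocorticoid receptor, rose in both, by 1.18 ± 0.16 in fetal cells (SE, limma adjusted p = 5.03e-05) and 0.54 ± 0.16 in adult cells (0.0292). Its bone marrow call was lost under 11 of 24 alternatives (adjusted p up to 0.114), among them without replicate 1 or 2 of either genotype. Dusp1 rose by 0.88 ± 0.24 (SE, limma adjusted p = 0.00873) and 1.15 ± 0.24 (0.00524), Per1 rose in bone marrow by 0.88 ± 0.19 (0.00664), and Zbtb16 fell by 0.82 in fetal liver (0.0499). The Zbtb16 call was lost under 11 of 23 alternatives (log2 fold change -1.23 to -0.43, adjusted p up to 0.178), among them without WT replicate 1 or 3 or ETV6-RUNX1 replicate 2 or 3 of fetal liver.

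The genes most like each member were ranked by the root mean square difference of the centred log2(CPM + 1) profiles over the 12 libraries, among 9519 candidates whose mean reached 5 CPM. For Klf6, whose own profile varied by 0.84 about its mean, the nearest were Gpr4, a proton-sensing receptor (0.17), and Ell2, an elongation factor (0.18). For Klf7 they were Ccnj (0.18) and Pik3cb (0.21), for Klf9 Cobll1 (0.19) and Syde1 (0.25), and for Klf13 Tollip (0.13) and Orai2 (0.13). Klf3 and Klf10 varied by 0.27 and 0.32 about their means, and their nearest genes were Xrcc4 and Rbm43 (0.0978 and 0.0984) and Tbc1d15 and Siae (0.0875 and 0.0884). The 12 libraries share depth and group structure, so these distances are a description.

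**Figure D5:**
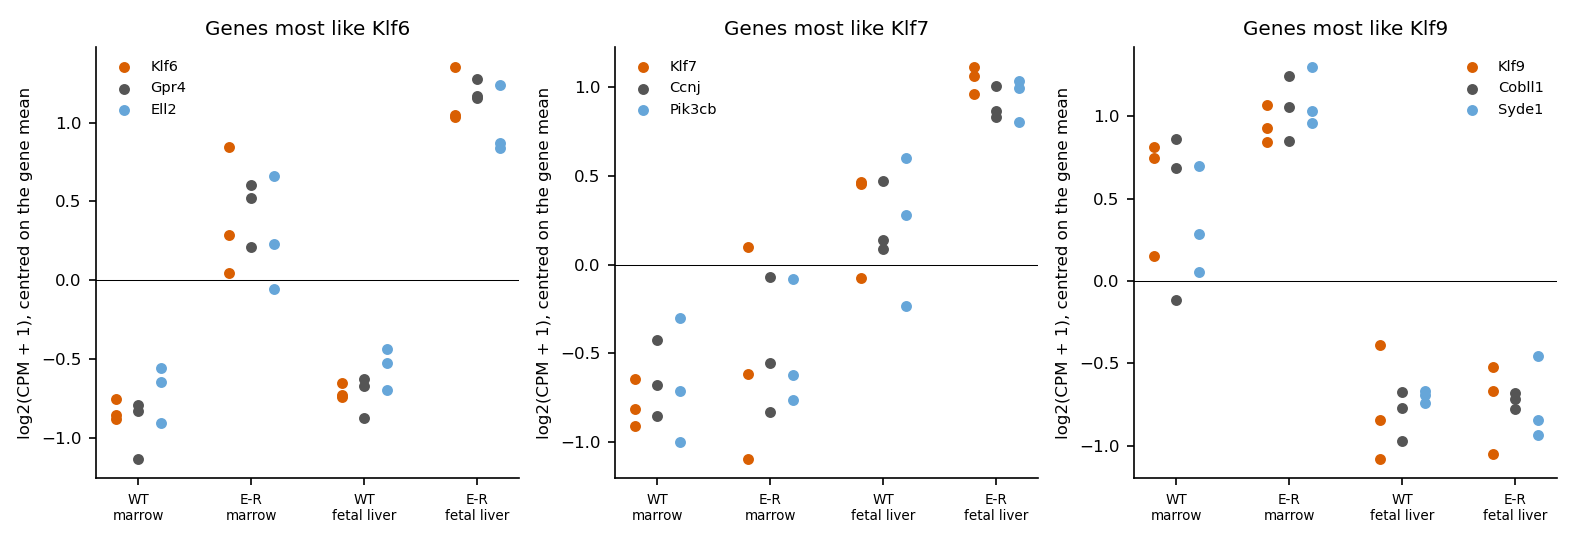
Centred log2(CPM + 1) (vertical axis) of Klf6, Klf7 and Klf9 and of the 2 genes nearest to each, over the 12 libraries grouped by source and genotype (horizontal axis), with 1 point per library. Gpr4 and Ell2 follow Klf6 within a root mean square difference of 0.17 and 0.18.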

How the data were processed

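RNA from 12 cultures was sequenced as total RNA with a stranded low-input kit, per the labels' protocols. Reads were aligned to GRCm38 with STAR 2.5.1a and counted with featureCounts 1.4.6-p5, and edgeR and limma are also named, per the submitters' processing notes; which annotation was used, and whether counting was strand-aware, are not given in the sources used here. The authors deposited 1 table of CPM values per gene. It has 40757 lines, 276 of which repeat a gene and were dropped. Every CPM value was a whole multiple of the value of 1 read (100.0% of values within 0.01), so whole reads were recovered for the count tests.

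The 8 members and all gene lists were chosen with earlier results of these data known. Genes with at least 1 CPM in 3 of 12 libraries (14271) were fitted on log2(CPM + 1) with limma 3.58.1 in R 4.3.3 (trend, not robust, 1 coefficient per group of 3, 8 residual degrees of freedom), for 5 comparisons, two-sided, with Benjamini-Hochberg adjustment. The script was tested on simulated data. All members are named, with at most 3 called genes per list and genotype comparison by smallest p, and the 2 genes nearest each member, without sex-linked or unnamed gene models. Of the genes named beyond that rule, Runx1, Xist, Ddx3y, Klf1 and the markers serve as checks, and Klf12, Sp3, Ctbp1, Ctbp2, Hdac2, Hdac3, Map2k5, Cd14, Lgals3, Cdkn1a and Jun were chosen after their values were seen, to complete a count. Some listed genes are counted but not reported here by name. Gene positions and exon lengths are from GENCODE for GRCm38, and promoters from RefSeq.

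Alternatives were pseudocount 0.1, no filter, a mean of at least 5 CPM, median-of-ratios scaling, quantile normalization, a replicate block, array weights, edgeR 4.0.16 and DESeq2 1.42.0 on recovered reads, only the 6 libraries compared, and each library left out. After the data were seen, a fit without WT bone marrow replicate 1 and WT fetal liver replicate 3 and a fit with the processed pseudogene share as a covariate were added.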

Additional observations from a re-analysis of the deposited data

Results flagged for a closer look

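Of the named genes listed around the KLF family, 5 had an ETV6-RUNX1 effect that differed between fetal liver and bone marrow in the limma test of the difference itself. That test was passed by 9.19% of all genes tested. The 5 genes were named because they were called in a comparison of genotypes, which shares its libraries with this test. Their count is therefore no separate support for a difference between the sources. Nothing further was tested on the 5 differences. Egr2, an immediate early zinc finger gene, had an effect larger in fetal liver by 2.92 on the log2 scale (limma adjusted p = 0.000253). Only the ETV6-RUNX1 fetal liver libraries held at least 1 CPM of Egr2 (5.55 to 13.5 CPM). Egr2 thus passed the filter through that group alone, and this test is no separate support for the difference. For Nr4a1, an immediate early nuclear receptor, the difference was 2.22 (limma adjusted p = 0.000759), with 6.15 ± 1.39 CPM in WT and 26.7 ± 7.60 in ETV6-RUNX1 fetal liver against 3.67 ± 0.513 and 2.86 ± 0.590 in bone marrow (SD, n = 3 each). The Ccl5 difference was 2.995 (limma adjusted p = 0.00299), where WT bone marrow started from 28.2 CPM and WT fetal liver from 1.91 CPM. The Zfp36 difference was 1.42 (limma adjusted p = 0.0155), from 60.1 to 348 CPM in fetal liver and 51.2 to 105 CPM in bone marrow. Mef2c, a MEF2 factor upstream of Klf2, differed by 0.87 (limma adjusted p = 0.0476), with 661 and 757 CPM in fetal liver against 550 and 346 CPM in bone marrow for WT and ETV6-RUNX1. This Mef2c call was lost under 12 of 23 alternatives (difference 0.27 to 1.11, adjusted p up to 0.606), among them without WT replicate 2 or 3 or ETV6-RUNX1 replicate 1 or 3 of bone marrow, or WT replicate 2 or 3 or ETV6-RUNX1 replicate 1 or 2 of fetal liver. The Egr2 call was lost under 2 of 22 (edgeR and DESeq2, adjusted p up to 0.0563) and the Zfp36 call under 1 of 23 (all genes with reads, 0.0679).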

How the results depend on the processing

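No member's called difference changed sign under any alternative. Several uncalled values did, among them the Klf13 difference between effects, with the pseudogene covariate. The Klf10 difference between effects ran from -0.36 to 0.58 over the alternatives, and the Klf13 log2 fold change in bone marrow from -0.42 to 0.35. The count of members called was 4 for ETV6-RUNX1 against WT in fetal liver, and 2 with quantile normalization and 2 with the pseudogene covariate, and the cause was not tested. The fit over all genes with reads called other members there: Klf2, Klf3, Klf4 and Klf6, and not Klf7 or Klf13. Leaving out 1 library gave 2 to 4 in fetal liver (2 without WT replicate 2, ETV6-RUNX1 replicate 1 or ETV6-RUNX1 replicate 2), and 1 in each case in bone marrow. For the difference between effects the count was 0, and 1 with array weights, 1 in DESeq2 and 1 without both WT bone marrow replicate 1 and WT fetal liver replicate 3, and leaving out 1 library gave 0 to 1. For fetal liver against bone marrow in WT the count was 2, and 1 in the fit over all genes with reads, which tests more low genes, 4 with array weights and 3 with the pseudogene covariate; leaving out 1 library gave 1 to 3. In ETV6-RUNX1 cells it was 4, and 3 to 4 with 1 library left out. The fit over all genes with reads also called Klf2 there, as higher in fetal liver by 0.45 (limma adjusted p = 0.0315). In WT cells that fit gave 0.23 for Klf2 (limma adjusted p = 0.437). The replicate block gave 4, 1, 0, 2 and 4 members in the 5 comparisons and changed no member's call. Same-numbered libraries of the 2 genotypes correlated in their deviations from group means at 0.16, -0.085 and 0.221 in fetal liver. In bone marrow these values were -0.307, 0.118 and -0.404. With 3 libraries per group these correlations cannot settle whether same-numbered libraries were handled together, and the labels used here do not say. Of all genes tested, 57.6% of the fetal liver calls and 74.5% of the bone marrow calls were higher, against 42% with quantile normalization in fetal liver and 53% with median-of-ratios scaling and 48.5% with quantile normalization in bone marrow. The number of all genes called moved by over 1.5 times in 3 comparisons: in bone marrow from 2763 to 1601 with only the 6 libraries compared and 1520 without ETV6-RUNX1 replicate 2, for the difference between effects from 1311 to between 547 (pseudogene covariate) and 3637 (array weights), and between WT sources from 1591 to between 868 (without WT bone marrow replicate 2) and 4401 (array weights). Klf2 and Klf4, at 4 to 45 reads per library, are limited by depth.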
